A study of Mus musculus with 16 samples.

Results

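Malat1 and Neat1 are neighbouring mouse genes for abundant nuclear long noncoding RNAs (lncRNAs), and the DRIP-seq peaks over them were taken from 8 peak lists. DRIP-seq (DNA:RNA hybrid immunoprecipitation and sequencing) pulls down R-loops, structures in which an RNA strand pairs with DNA, with the monoclonal antibody S9.6. A peak was a member if it overlapped the gene body of Malat1 or Neat1, or the 2000 bp on either side, in the GENCODE M21 annotation of GRCm38. This rule gave 21 of the 77297 peaks in the 8 lists, 13 at Malat1 and 8 at Neat1. All 21 touched a gene body, so the flanks added no peak. The genes were selected on the number, width, covered share and fold enrichment of their peaks in these lists, so those values are a description and carry no test.

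The cells were NIH/3T3 fibroblasts, an established line from mouse embryos. They were wild type (WT) or carried a knockout (KO) of Xpo4, which encodes exportin 4, a receptor for export from the nucleus. The genomic DNA was digested with the restriction enzymes MseI, DdeI, AluI and MboI. Before the S9.6 pull-down it received either reaction buffer (RNase R-) or RNase R (RNase R+), which digests linear RNA from its end and leaves circles intact. The 4 groups, XPO4 KO RNase R-, XPO4 KO RNase R+, WT RNase R- and WT RNase R+, held 2 replicates each, and the labels do not say whether replicates were separate cultures or how many clones the KO cells came from. The inputs were not analysed here. Peak lists of DNA:RNA hybrids cannot show whether the cells lacked Xpo4, so the genotypes were taken from the labels alone.

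Malat1 RNA gathers at nuclear speckles, bodies rich in splicing factors. Neat1 RNA is the scaffold of paraspeckles, bodies that form beside speckles. Neat1 gives a short and a long RNA from a shared start, and the long RNA is the form needed to build paraspeckles. Both genes are transcribed at high level in many cell types, and Malat1 RNA and the long Neat1 RNA end in a structured 3′ end in place of the usual poly(A) tail, which the short Neat1 RNA has. S9.6 binds DNA:RNA hybrids, and the peak lists do not tell which DNA strand the RNA was paired with. Whether its binding varied with the sequence of the hybrid was not tested.

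Malat1 lay at chr19:5795690-5802672 on the minus strand, and its annotated gene body of 6983 bp was a lincRNA with 4 transcripts. Neat1 lay at chr19:5824708-5845478, also on the minus strand, with a gene body of 20771 bp and 4 transcripts. Between the genes were 22035 bp. The longest transcript of each gene was a continuous exon over the whole gene body, so every covered base was exonic in it. A short transcript, which began at the same end of the gene, spanned 3170 bp at chr19:5842307-5845476 and had an intron of 166 bp at chr19:5844759-5844924. Distances below run from the annotated gene start along the RNA.

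The sequences under the main summits carry the result most directly, since the summit is the position with most fragments. The windows below are 200 bp of GRCm38 around the summits, read 5′ to 3′ on the RNA strand (minus), with the recognition sites of the 4 enzymes in capitals. The sites are TTAA (MseI), CTNAG (DdeI), AGCT (AluI) and GATC (MboI), each the same on both strands. The first window, chr19:5801172-5801371, holds the Malat1 summits of all 4 XPO4 KO lists and of WT RNase R- replicate 2. The second, chr19:5844416-5844615, holds the Neat1 summits of both XPO4 KO RNase R- lists. The third, chr19:5845320-5845519, crosses the start of Neat1 and holds the main summits of both XPO4 KO RNase R+ lists. The last, chr19:5801855-5802054, holds the Malat1 summit of WT RNase R- replicate 1.
Malat1 KO summit: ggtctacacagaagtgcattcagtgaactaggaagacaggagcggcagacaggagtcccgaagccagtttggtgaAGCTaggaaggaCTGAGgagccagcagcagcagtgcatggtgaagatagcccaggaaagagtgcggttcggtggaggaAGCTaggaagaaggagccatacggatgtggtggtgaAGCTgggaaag
Neat1 KO RNase R- summit: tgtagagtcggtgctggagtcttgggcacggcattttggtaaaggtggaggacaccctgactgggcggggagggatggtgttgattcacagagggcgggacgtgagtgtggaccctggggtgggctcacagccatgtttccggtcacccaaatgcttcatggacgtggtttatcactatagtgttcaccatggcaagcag
Neat1 KO RNase R+ summit: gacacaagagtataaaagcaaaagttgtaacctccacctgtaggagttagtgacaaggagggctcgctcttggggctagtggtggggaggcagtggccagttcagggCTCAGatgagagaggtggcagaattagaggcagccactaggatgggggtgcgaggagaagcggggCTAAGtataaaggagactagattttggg
Malat1 WT RNase R- replicate 1 summit: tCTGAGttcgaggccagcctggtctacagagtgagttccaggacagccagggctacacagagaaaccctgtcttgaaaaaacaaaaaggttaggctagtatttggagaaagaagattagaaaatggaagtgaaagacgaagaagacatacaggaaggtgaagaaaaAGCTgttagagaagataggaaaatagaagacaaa

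The 4 windows held more purines than pyrimidines on the RNA strand. Purines made up 69% of the Malat1 window under the KO summits, 56% of the Neat1 RNase R- window, 66.5% of the Neat1 RNase R+ window and 70% of the Malat1 window of WT RNase R- replicate 1. In the Neat1 RNase R- window they were mostly G, at 36.5% against 19.5% A, while the gene as a whole held 25.1% G and 22.7% A. GC skew, (G − C)/(G + C) on the RNA strand, was 0.40, 0.29, 0.43 and 0.35 in the same order. The Malat1 KO window held 4 recognition sites, 3 of them AluI, and the Neat1 RNase R- window held none. Of the 291024 windows of 200 bp on chromosome 19, 96.4% held at least 1 site, with MseI in 61.4%, DdeI in 64.8%, AluI in 60.6% and MboI in 37.99%.

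The lists themselves differed in size and in background. The number of peaks was 26219 and 32031 in XPO4 KO RNase R-, 6372 and 5996 in XPO4 KO RNase R+, 3885 and 2171 in WT RNase R-, and 271 and 352 in WT RNase R+. The background level of the peak caller, in fragments per position, was 0.843 to 0.924 in the 4 KO lists and 0.425 to 0.558 in the 4 WT lists. Every KO list lay above every WT list, so background level and genotype cannot be told apart. Summit heights, in fragments, are therefore also given divided by the background level of their own list. The background level is no count of sequenced reads. Read totals for the libraries are stated by the study and were not used here, and the background level does not follow their order. By those totals, both WT RNase R- immunoprecipitates had far fewer uniquely mapped reads than each KO immunoprecipitate. Heights divided by or scaled to the background level are therefore not set to equal read depth. More cells with a hybrid and more hybrid per cell cannot be told apart in such libraries. The peak names in WT RNase R- replicate 1 (3885 of 3885) are those of replicate 2, although the lists have no row in common (0). The values of each list are therefore printed beside any mean of the 2.

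Malat1 had peaks in 6 of the 8 lists. It held 2 and 3 peaks in XPO4 KO RNase R-, 3 and 3 in XPO4 KO RNase R+, 1 and 1 in WT RNase R-, and none in WT RNase R+. As background, the share of the 55450 annotated genes with at least 1 peak in the body or flanks was 20.1% and 23.1% in XPO4 KO RNase R-, 6.82% and 6.1% in XPO4 KO RNase R+, 3.41% and 2.13% in WT RNase R-, and 0.254% and 0.317% in WT RNase R+. A peak in all 4 KO lists and both WT RNase R- lists, with none in WT RNase R+, was found for 0.382% of genes (212).

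Peaks covered most of Malat1 in the KO lists. The covered share of the gene body was 81.4% and 69.1% in XPO4 KO RNase R- (75.2% ± 8.69, SD, n = 2) and 72.8% and 67.6% in XPO4 KO RNase R+ (70.2% ± 3.70, SD, n = 2). The RNase R- and RNase R+ lists overlapped in this measure, and their means differed by less than the SD of the RNase R- replicates. In WT RNase R- the covered share was 11.7% and 21.5% (16.6% ± 6.89, SD, n = 2), so that the KO mean was 4.53 times the WT mean and the lists did not overlap. In WT RNase R+ it was 0%.

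Most of this cover came from 1 long peak. Its width was 4870 and 3922 bp in XPO4 KO RNase R-, 3739 and 3793 bp in XPO4 KO RNase R+, and 820 and 1500 bp in WT RNase R-. The median peak of these 6 lists was 248 to 303 bp wide. The long Malat1 peak was the third to the fifth widest nuclear peak in each KO list, and the twelfth widest in WT RNase R- replicate 2. In WT RNase R- replicate 1 it was 76th of 3884 nuclear peaks.

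**Figure D1:**
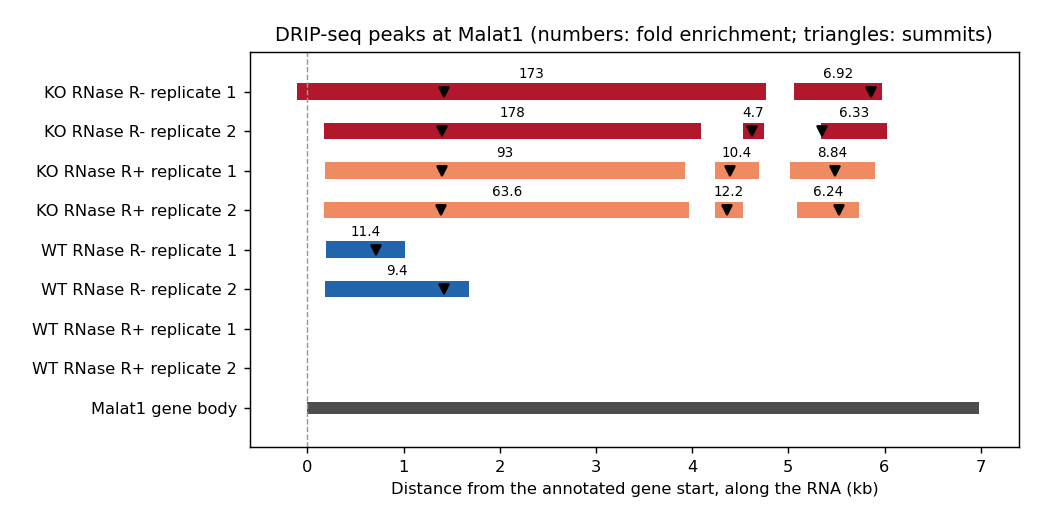
Peaks over Malat1 in each of the 8 lists (bars, 1 row per list) against the distance from the annotated gene start along the RNA, in kb. Triangles mark summits, numbers give the fold enrichment of each peak, and the grey bar is the gene body of 6983 bp. The long peak begins near the start in all 6 lists that have one, and the 2 WT RNase R+ rows are empty.

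The cover was not even along the gene. Over the first 5 kb of Malat1 the peaks covered 95.3% and 82.8% in XPO4 KO RNase R-, 84.0% and 81.7% in XPO4 KO RNase R+, and 16.4% and 30.0% in WT RNase R-. Over the rest of the gene they covered 46.1% and 34.4%, 44.6% and 32.1%, and 0% in both WT lists. A stretch of 957 to 1252 bp at the 3′ end lay outside every peak in the 4 KO lists, as the peak map of Malat1 shows. In all, 1206 bp (17.3%) of the gene were covered in no list, 4129 bp (59.1%) in all 4 KO lists, and 820 bp (11.7%) in these 4 and both WT RNase R- lists. These 820 bp were the whole peak of WT RNase R- replicate 1.

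The 5′ border of the long peak fell at nearly the same place in 5 lists, 173 to 196 bp inside the gene. In XPO4 KO RNase R- replicate 1 it reached 104 bp upstream of the annotated start. The summits were closer still. They lay 1418, 1396, 1395 and 1391 bp from the start in the 4 KO lists, within 27 bp of each other, and 1425 bp from it in WT RNase R- replicate 2. In WT RNase R- replicate 1 the summit lay at 717 bp.

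The enrichment at the Malat1 summit was among the highest in the KO lists. The highest fold enrichment was 173 and 178 in XPO4 KO RNase R- (175 ± 4.07, SD, n = 2), 93.0 and 63.6 in XPO4 KO RNase R+ (78.3 ± 20.8, SD, n = 2), and 11.4 and 9.40 in WT RNase R- (10.4 ± 1.44, SD, n = 2). Fold enrichment is the summit height over the level expected there, each with 1 added, as the peak caller gives it. Ranked by this value among 55413 nuclear genes, Malat1 was 3rd and 2nd in XPO4 KO RNase R- and 12th and 20th in XPO4 KO RNase R+. Among the 10155 lncRNA genes it was first in 3 KO lists and second in XPO4 KO RNase R+ replicate 2. In WT RNase R- it was 103rd and 173rd among nuclear genes, and 15th and 32nd among lncRNA genes.

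The summit heights behind these values were 317 and 337 fragments in XPO4 KO RNase R-, 178 and 148 in XPO4 KO RNase R+, and 17 and 13 in WT RNase R-. Over the background level of the list, the summits stood 376 and 376 times in XPO4 KO RNase R-, 193 and 166 times in XPO4 KO RNase R+, and 35.5 and 26.6 times in WT RNase R-. The KO to WT ratio of the means without RNase R was 16.8 by fold enrichment, 21.8 by height and 12.1 by height over background. The KO RNase R- summits were scaled down to the background level of the WT list with the same number. They would be 180 and 184 fragments high, against the 17 and 13 found. Read totals, lower in WT RNase R-, took no part in this scaling. The WT heights are small, and their ratio to KO has a counting error to match. The highest fold was higher in both KO RNase R- lists than in both WT RNase R- lists for 50.4% of the 15879 genes with a peak in any of these 4 lists, so the direction at Malat1 was the common one.

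With RNase R, the lists of the 2 genotypes differed too. Malat1 had no peak in WT RNase R+, where a summit of 7 fragments in replicate 1 or 8 in replicate 2 at the background level would have reached the lowest −log10 p of the list. The KO RNase R+ summits scaled to the WT background level were 82 and 93 fragments high. Both KO RNase R+ lists were higher than both WT RNase R+ lists for 36.2% of the 5258 genes with a peak in any of these lists.

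**Figure D2:**
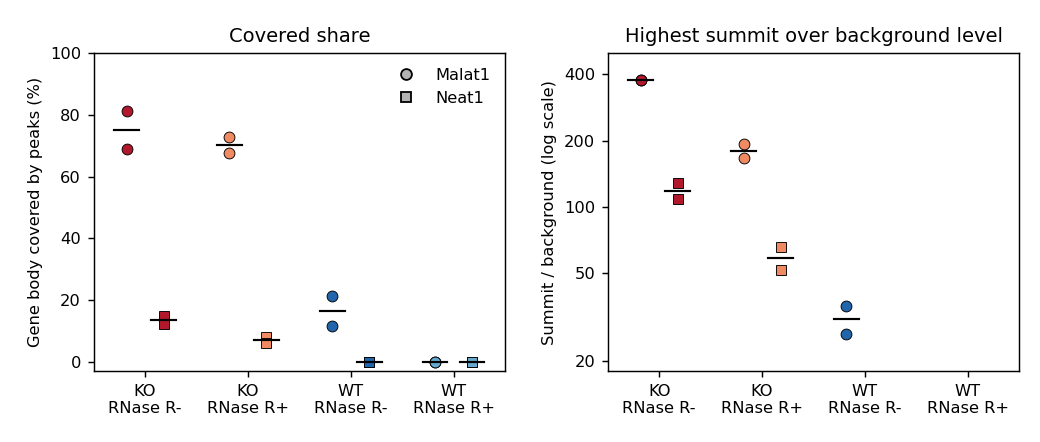
Covered share of the gene body in percent (left) and highest summit height divided by the background level of the list (right, log scale) at Malat1 (circles) and Neat1 (squares) in the 4 groups. Each point is 1 list and each line the mean of 2 lists. Lists with no peak are at 0 on the left and have no point on the right. Malat1 lies above Neat1 in every KO list on both measures, and Neat1 is at 0% in all 4 WT lists.

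Neat1 had peaks in the KO lists and in none of the WT lists. It held 2 and 1 peaks in XPO4 KO RNase R- and 2 and 3 in XPO4 KO RNase R+. A peak in all 4 KO lists and in no WT list was found for 2.11% of annotated genes (1171). The covered share of the gene body was 14.8% and 12.2% in XPO4 KO RNase R- (13.5% ± 1.82, SD, n = 2) and 8.19% and 6.07% in XPO4 KO RNase R+ (7.13% ± 1.50, SD, n = 2). The RNase R- lists lay above the RNase R+ lists, with a ratio of the means of 1.89.

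Nearly all of this cover lay over the start of the gene, where the short and the long RNA share their sequence. Within the span of the short transcript, peaks covered 79.8% in both XPO4 KO RNase R- lists and 53.6% and 39.7% in the XPO4 KO RNase R+ lists. Over the other 17599 bp, which lie outside the short transcript, the cover was 3.04% in XPO4 KO RNase R- replicate 1. It was 0% in the other 3 KO lists. The 3.04% was a weak peak at chr19:5834043-5834577, with its summit 11361 bp from the start, a fold enrichment of 4.77 and a height of 10 fragments. The intron of the short transcript was covered fully in 3 KO lists and not at all in XPO4 KO RNase R+ replicate 2.

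**Figure D3:**
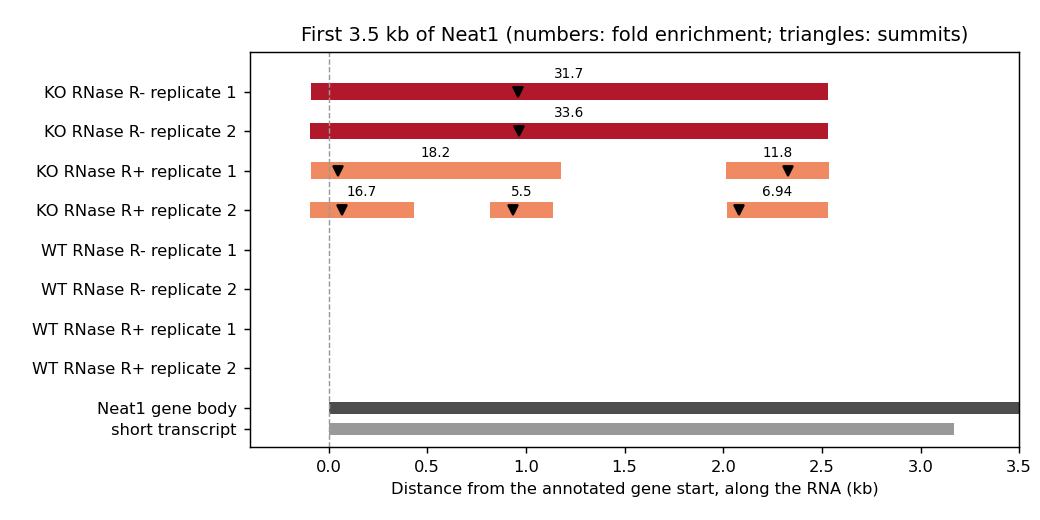
Peaks over the first 3.5 kb of Neat1 in each of the 8 lists against the distance from the annotated gene start along the RNA, in kb. Triangles mark summits, numbers give fold enrichment, the dark grey bar is the gene body (cut off on the right) and the light grey bar is the span of the short transcript. The 4 KO lists share their outer borders, the RNase R+ peaks leave gaps inside them, and the 4 WT rows are empty.

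The outer borders of the Neat1 peaks were the same in the 4 KO lists to within a few bp. The 5′ border lay 91 to 93 bp upstream of the gene start and the 3′ border of the last peak near the start lay 2529 to 2535 bp inside the gene. In XPO4 KO RNase R- the space between was 1 peak of 2624 and 2626 bp. In XPO4 KO RNase R+ it broke up, into peaks of 1270 and 522 bp in replicate 1 and of 524, 318 and 511 bp in replicate 2. Of the 1701 bp covered in either RNase R+ list, 1698 bp were also covered in an RNase R- list, so RNase R+ added almost no sequence. At Malat1 the same held for 5093 of 5141 bp.

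The Neat1 summit was at another place after RNase R. It lay 960 and 963 bp from the start in XPO4 KO RNase R-, and 48 and 68 bp from it in XPO4 KO RNase R+, a shift of 912 and 895 bp in the same-numbered lists. A smaller peak remained around the RNase R- summit in replicate 2 of RNase R+, with its own summit at 933 bp and a fold enrichment of 5.50. At Malat1, by contrast, the 4 KO summits lay within 27 bp. The difference between the genes in this shift was not tested.

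The highest fold enrichment at Neat1 was 31.7 and 33.6 in XPO4 KO RNase R- (32.6 ± 1.37, SD, n = 2) and 18.2 and 16.7 in XPO4 KO RNase R+ (17.4 ± 1.07, SD, n = 2). The heights were 92 and 115 fragments, and 61 and 46 fragments. Over the background level they stood 109 and 128 times, and 66.0 and 51.7 times. Neat1 was 74th and 75th of the nuclear genes in XPO4 KO RNase R- and 140th and 106th in XPO4 KO RNase R+. Among lncRNA genes it was seventh and ninth, and 14th and 12th. The level that the caller expected at the main Neat1 summits was 2.04 to 2.74 times the background level of the list, whereas at the main Malat1 summits of the KO lists it was 1.00 times, apart from 1.51 times in XPO4 KO RNase R+ replicate 2. The control behind these levels was not stated, and what raised them at Neat1 was not tested.

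No peak at Neat1 in WT bounds the signal there and does not show that it was absent. At the background level, a summit of 6 and 7 fragments would have reached the lowest −log10 p of the WT RNase R- lists, and more would be needed where the expected level is higher. Scaled to the WT background level, the KO RNase R- summits at Neat1 would be 52 and 63 fragments high, with a −log10 p of 67.9 and 81.6. The KO RNase R+ summits would be 28 and 29 fragments high. Read totals took no part in this scaling either.

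In the KO cells both genes had a lower enrichment in the RNase R+ lists than in the RNase R- lists. The ratio of RNase R+ to RNase R- highest fold was −0.89 and −1.49 on the log2 scale at Malat1 (mean −1.19, 2.28-fold lower) and −0.80 and −1.01 at Neat1 (mean −0.91, 1.87-fold lower), in replicates 1 and 2. The 1710 nuclear genes with a peak in all 4 KO lists had a median of −0.37, with quartiles of −0.69 and −0.09. Of these, 84 lay below Malat1 and 238 below Neat1. By height over background the log2 ratio was −1.07 at Malat1 and −1.02 at Neat1, the median was −0.42, and 147 and 173 genes lay lower. Both KO RNase R- lists were above both KO RNase R+ lists for 43.2% of the 16009 genes with a peak in any KO list, and for 50.1% of the 1747 genes with a peak in all 4, mitochondrial genes included. A gene in this set needs a called peak in every KO list, so a gene with a low fold without RNase R could not fall far and stay in it, while Malat1 and Neat1 could. The place of the members in this distribution is therefore given as a description.

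**Figure D4:**
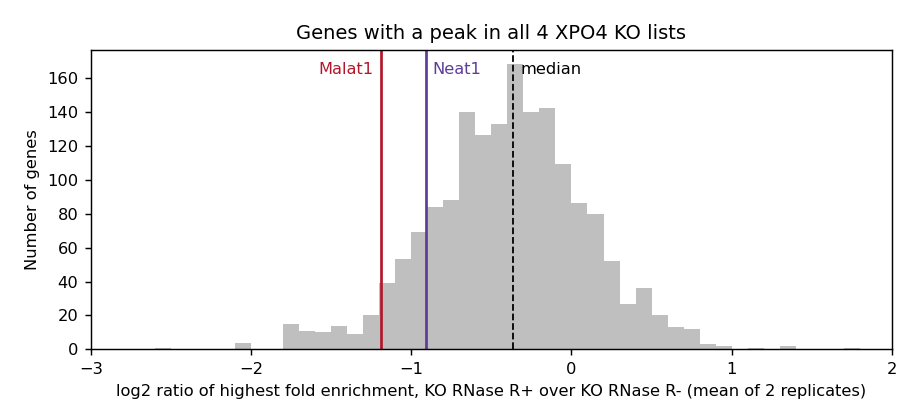
Number of genes (y axis) by the log2 ratio of their highest fold enrichment in XPO4 KO RNase R+ over XPO4 KO RNase R- (x axis, mean of the same-numbered pairs) for the 1710 nuclear genes with a peak in all 4 KO lists. The dashed line is the median, −0.37, and the coloured lines are Malat1 at −1.19 and Neat1 at −0.91, both on the lower side of the lower quartile, −0.69. Genes need a peak in all 4 lists to be counted, which limits how low a weakly enriched gene can lie.

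The base composition of the covered sequence was measured next. Composition took no part in the choice of the genes, while the covered parts are set by the same peaks as that choice. R-loops are known to form where the RNA strand is rich in G, which GC skew records. Malat1 as a whole had a GC skew of 0.19, and 10 of 1233 annotated genes of at least 200 bp on chromosome 19 had a higher one on their own RNA strand. Neat1 had 0.06, with 183 genes higher. The median gene had 0.01, with quartiles of −0.02 and 0.04.

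Within both genes the sequence covered in all 4 KO lists had a higher skew than the sequence covered in no list. In Malat1 it was 0.26 in the sequence covered in all 4 KO lists and 0.05 in the sequence covered in no list. The 253 bp covered in both RNase R- lists and in no RNase R+ list had −0.05. It was 0.41 and 0.35 in the parts covered in WT RNase R- replicates 1 and 2, where purines made up 66.2% and 64.1% against 54.0% over the gene. In Neat1 it was 0.29 in the sequence covered in all 4 KO lists, 0.16 in the sequence covered in both RNase R- lists and in no RNase R+ list, and 0.03 in the sequence covered in no list. GC content in these 3 parts of Neat1 was 53.5%, 53.5% and 46.3%. In Malat1 it was 42.4% in the sequence covered in all 4 KO lists and 44.6% in that covered in no list, so covered sequence was not richer in G and C there. Repeats, as marked in the genome sequence, made up 21.8% and 13.5% of the Malat1 parts covered in WT RNase R- replicates 1 and 2. Over the whole gene they made up 11.4%. Repeats in the printed windows were not counted. Cover was higher toward the start of both genes, and skew was not compared at matched positions along them. The values are descriptions of 2 genes, and neighbouring bases are not independent.

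**Figure D5:**
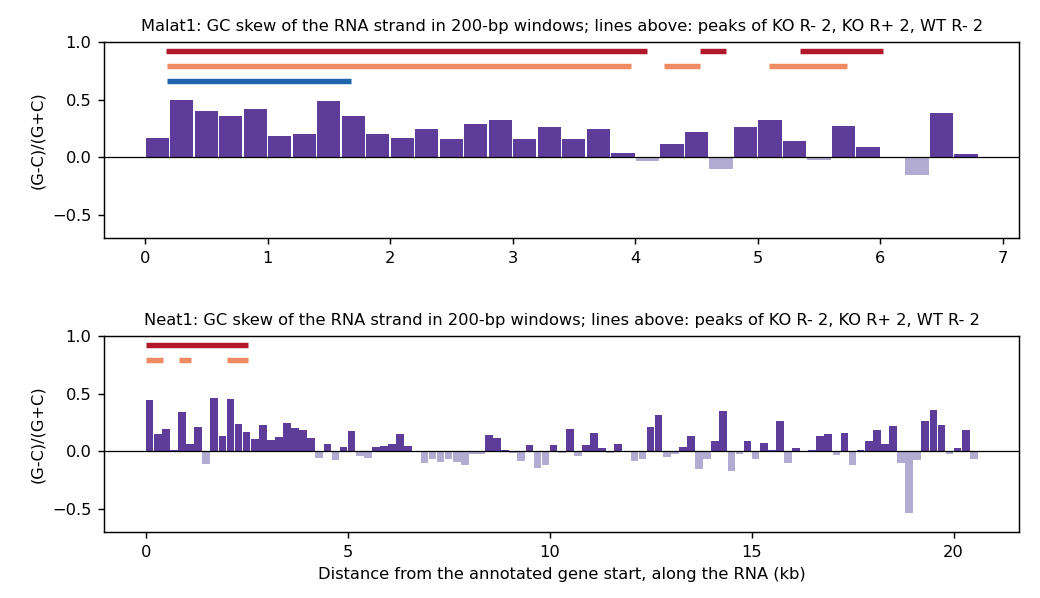
GC skew, (G − C)/(G + C) on the RNA strand, in consecutive 200-bp windows along Malat1 (top) and Neat1 (bottom) against the distance from the gene start in kb. Bars above 0 are dark and below 0 light, and the lines at the top are the peaks of replicate 2 of XPO4 KO RNase R- (red), XPO4 KO RNase R+ (orange) and WT RNase R- (blue, Malat1 only). The skew is positive along most of Malat1 and near the start of Neat1, and lies around 0 along the rest of Neat1.

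Because the DNA was cut with 4 enzymes, the restriction sites also set what a fragment could be. Malat1 held 155 cut positions (22.2 per kb) and Neat1 408 (19.6 per kb), against 18.5 per kb over chromosome 19. The median fragment was 31.5, 33 and 36 bp. The Neat1 sequence covered in all 4 KO lists held 11.1 cut positions per kb. Both XPO4 KO RNase R- summits of Neat1 fell in a fragment of 355 bp, chr19:5844300-5844654, the longest of the gene. Both main XPO4 KO RNase R+ summits fell in a fragment of 157 bp across the gene start, chr19:5845409-5845565, and 17 fragments of Neat1 were longer.

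The Malat1 summits lay in short fragments instead. Those of 3 KO lists and of WT RNase R- replicate 2 fell in a fragment of 64 bp, that of XPO4 KO RNase R+ replicate 2 fell in the next fragment, of 14 bp, and that of WT RNase R- replicate 1 in a fragment of 163 bp. Over all peaks on chromosome 19 the median fragment at the summit was 186 to 270 bp in the 6 KO and WT RNase R- lists, and over all positions of the chromosome it was 91 bp. The Neat1 RNase R- summits thus lay in a fragment longer than the usual summit fragment, and the Malat1 KO summits in shorter ones. How completely the DNA was cut was not measured here.

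Peak borders followed the cut sites. Of the 42 borders of the 21 member peaks, 34 (81.0%) lay within 10 bp of a cut position, close to the 76.9% of the 5232 borders of all chromosome 19 peaks, and against 32.4% of all positions. The part of the digestion in the shared borders at Neat1 was not tested.

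Genes within 100 kb of Malat1 and Neat1 showed that the enrichment did not run across the whole region. The window of 249.789 kb held 23 annotated genes, Malat1 and Neat1 included. Outside the member peaks it had 12 and 23 peaks in XPO4 KO RNase R-, 6 and 5 in XPO4 KO RNase R+, 1 and 0 in WT RNase R-, and none in WT RNase R+. Their fold enrichment ran from 4.04 to 13.2, below that of the main Neat1 peaks. Ehbp1l1 had 5, 5, 2 and 3 peaks in the KO lists, with a highest fold of 10.9, 12.1, 13.2 and 8.97. Frmd8, next to the start of Neat1, had 2, 3, 2 and 1 peaks, with a highest fold of 7.60 to 11.1.

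Between the genes there was 1 peak in the 8 lists, at chr19:5819332-5819626 in XPO4 KO RNase R- replicate 2, with a fold enrichment of 6.86. It lay 5082 bp past the 3′ end of Neat1 and was the closest peak outside the members on that side. The small RNA gene Gm27702, at chr19:5824652-5824707 directly past the 3′ end of Neat1, had no peak in any list. Genes annotated inside the members share their peaks and are no separate evidence. They were Gm27694 and Gm37376 at Malat1, and Gm27533, Gm27505 and Gm28006 at Neat1. Frmd8os, beside the start of Neat1, shares the main Neat1 peak through its flank, while 4.30% to 5.58% of its own body was covered in 3 KO lists by peaks that were not members.

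The genes most like the members were found by the distance between their highest folds, on the log2 scale, over the 8 lists. Among the 5 nearest to Malat1 were Myo3a and 3 pseudogenes within it that share its peaks, at a distance of 2.29. For Neat1 the nearest was Rps16, a ribosomal protein gene, at 0.22, with 33.0 and 38.4 in XPO4 KO RNase R- and 17.4 and 17.2 in XPO4 KO RNase R+. Its intronic snoRNA gene AF357399 shares these peaks. Ptma, Eif3d and Dph5 followed, at 0.32 to 0.33. All 5 genes nearest to Neat1 were thus closer to it than Myo3a was to Malat1.

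Other nuclear lncRNA genes and the genes of proteins from the same bodies were read alongside. Of 24 other nuclear or nucleus-acting lncRNA genes found in the annotation, 12 and 12 had a peak in XPO4 KO RNase R-, 5 and 6 in XPO4 KO RNase R+, 3 and 2 in WT RNase R-, and 1 and 1 in WT RNase R+. Among all 10155 lncRNA genes, these numbers were 1829 and 2217, 538 and 529, 339 and 220, and 18 and 25, in the same order. The share with a peak was thus larger among the 24 in every list, but the 2 sets are not alike in gene type. Rn7sk, Terc and Rpph1, among the 24, are annotated as other RNA types and lie outside the 10155. The 2 genes with a peak in WT RNase R- replicate 2 were Rn7sk and Rpph1, so the larger share there rests on them. Gene length and expression were not matched either. Gas5, a host gene of small nucleolar RNAs, had a highest fold of 21.2 and 25.7 in XPO4 KO RNase R- and 12.5 and 16.7 in XPO4 KO RNase R+, and no peak in WT. Airn, an imprinted antisense transcript, had 8.68 and 10.1, and 8.32 and 6.44. Snhg1, which also hosts small nucleolar RNAs, had 6.95 and 8.97, and 8.32 and 7.94. The highest fold of any of the 24 was 26.0 and 26.4 in XPO4 KO RNase R-, and 12.5 and 16.7 in XPO4 KO RNase R+. These were below Malat1 in each KO list, and below Neat1 with the smallest gap in XPO4 KO RNase R+ replicate 2, where both were 16.7.

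Rn7sk, the gene of the 7SK RNA that restrains the elongation factor P-TEFb, had its higher values in WT. Its highest fold was 14.1 and 10.0 in XPO4 KO RNase R-, 19.1 and 24.8 in WT RNase R-, and it had no peak with RNase R. Its covered share was 70.4% in both KO lists and 92.1% in both WT lists. Rn7sk has near-identical copies in the genome, so reads may be placed wrongly or lost there. Tsix, the antisense partner of Xist, had peaks in the WT RNase R+ lists alone, with a highest fold of 7.02 and 11.6.

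Of the 20 paraspeckle protein genes, 15 and 17 had a peak in XPO4 KO RNase R-, 6 and 7 in XPO4 KO RNase R+, 3 and 0 in WT RNase R-, and none in WT RNase R+. Tardbp, the gene of TDP-43, had a highest fold of 14.7 and 15.8 in XPO4 KO RNase R- and 11.5 and 9.86 in XPO4 KO RNase R+. Of the 18 nuclear speckle protein genes, 12 and 15 had a peak in XPO4 KO RNase R-, 4 and 5 in XPO4 KO RNase R+, 1 and 0 in WT RNase R-, and none in WT RNase R+. Pnn, a splicing-associated protein, had 38.4 and 27.8, and 35.5 and 21.1. Srrm2, a scaffold of speckles, had 34.7 and 28.5, and 25.5 and 16.9. In the 4 KO lists both sets had a larger share of genes with a peak than the annotation as a whole. Both sets hold protein-coding genes only, whereas the annotation holds all gene types. Gene type, length and expression were not matched.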

How the data were processed

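Peak lists of 8 S9.6 DRIP-seq immunoprecipitates from NIH/3T3 cells (4 groups of 2 replicates) were used. The authors trimmed adapters, aligned paired reads to GRCm38 with Bowtie2, filtered them with SAMtools 1.1 and called peaks in each replicate with MACS2 at a q of 0.001. The control used for calling is not given in the sources used here. The deposited fold enrichment is a ratio of summit height to expected level, each with 1 added. The deposited p-values and q-values are −log10 values. The deposited score column derives from the −log10 q and entered no result.

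Members were peaks overlapping a gene body or its 2000-bp flanks by at least 1 bp (GENCODE M21). The genes named beyond the members were those within 100 kb, the 5 genes nearest in log2 highest fold over the 8 lists (a gene without a peak counted as a fold of 1), and members of 3 gene lists with a peak in both replicates of a group, of which examples are given. Some genes that these rules name are not reported here. Genes, lists and rules were chosen with earlier results of these data known. Whole summit heights were recovered from fold and p under a Poisson distribution for 77297 of 77297 peaks (relative tolerance 2e-05). The lowest expected level of a list is its background level. On simulated data, 4857 of 4857 heights and 4404 of 4404 gene-peak pairs (against bedtools 2.31.1) came back. No result was tested, since the genes were chosen on these values and groups held 2 lists. Sequence came from the RefSeq copy of GRCm38, in which both longest transcripts matched the genome base for base. Its promoter table held Malat1 and was not used. Python 3.11.15, numpy 2.4.6, pandas 2.3.3 and scipy 1.17.1 were used. Alternatives were a stricter q, no flanks, a larger overlap, exons only, cover shared by both replicates, KO lists scaled to the WT background level, and leaving out each replicate.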

Additional observations from a re-analysis of the deposited data

How the results depend on the processing

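The covered share, number of peaks and highest fold of Malat1 and Neat1 in each group made 21 values, recomputed under 113 alternatives in all. Of these, 110 stayed within the replicate SD (within 1.5 times for numbers of peaks). With 2 lists per group, leaving out a list cannot move a mean beyond the SD, and values of 0 could not move, so most of this was fixed by the design. Keeping peaks with a −log10 q of at least 10 moved the covered share of Malat1 in XPO4 KO RNase R+ from 70.2% to 65.7%, and its number of peaks in XPO4 KO RNase R- from 2.5 to 1.5 per list. Scaling the KO lists to the WT background level also left 1.5 Malat1 peaks per list in XPO4 KO RNase R-, with both weaker peaks of replicate 2 lost. It also dropped the weak Neat1 peak of XPO4 KO RNase R- replicate 1, while the main Malat1 and Neat1 peaks of all 4 KO lists were kept. Without 1 replicate, the highest fold of Malat1 in XPO4 KO RNase R+ lay between 63.6 and 93.0, and its covered share in WT RNase R- between 11.7% and 21.5%. The union of exons gave the same covered shares as the gene body, since the longest transcripts span it. No paired analysis was possible because the labels do not say whether same-numbered lists share a preparation. No result comes from a test, and shifts and ratios of same-numbered lists are given as values alone. At the background level of its list, the lowest height that reaches the list's lowest −log10 p was 7 to 8 fragments in KO and 6 to 8 in WT, against WT RNase R- summits of 17 and 13 fragments at Malat1.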
